A study of Mus musculus with 12 samples.

Results

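DICER1 carrying the D1709N substitution was set against wild-type DICER1 in the mouse cell line DKO172, which the labels derive from a fallopian tumor, on 6 of the 12 single-colour Agilent arrays of the study. The 6 arrays are D1709N replicates 1, 2 and 3 and wild-type replicates 1, 2 and 3, taken by their titles and paired by replicate number. The study's other arrays are 3 of cells given GFP, which serve here as the baseline for both DICER1 forms, and 3 of cells given DICER1 G1809R, which enter the joint fit and are not described.

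All 4 groups were treated alike. Cells were plated at 200000 per well and given 2 µg of a pLD-hygro-EnVM plasmid that carried DICER1 WT, D1709N, G1809R or GFP, were re-plated 24 h later, and stayed in hygromycin at 300 µg/ml for 84 h before RNA was taken. Each array therefore measures a drug-selected pool of transfected cells of 1 line. The labels do not say whether the 3 arrays of a group came from separate cultures, so p-values measure the spread between these arrays, which may be technical. In such bulk RNA, fewer cells of a type and less RNA per cell cannot be told apart. No probe on the array was tied to the introduced DICER1, so its amount in D1709N and WT cells was not measured. Of the line's defining labels, the epithelial keratin genes Krt8 and Krt18, the Muellerian factor Wt1 and the oviduct secretory gene Ovgp1 were well measured, whereas Epcam, Cdh1 and Pax2 lay near background and the ciliated-cell factor Foxj1 and the Muellerian factor Pax8 did not pass the filter on dim probes.

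Dicer is the endonuclease that cuts a precursor hairpin into a short duplex, of which 1 strand is loaded into Argonaute and guides the silencing of matching mRNAs. Its RNase IIIa domain cuts the side of the hairpin that holds the 3p strand, and its RNase IIIb domain cuts the side that holds the 5p strand. D1709 is a metal-binding residue of the RNase IIIb domain and a recurrent site of somatic mutation in ovarian sex cord-stromal and other tumors. Changes at this residue are known to leave 3p strands in place while 5p strands fail to form. The arrays measured mRNAs and not the miRNAs themselves.

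The question put to the arrays was which effects of wild-type DICER1, measured against GFP, D1709N failed to give and which it kept. The hairpin of Mirlet7a-1 (chr13:48538179-48538272, minus strand, RefSeq on GRCm38.p6) shows a 5p product and that of Mir101a (chr4:101346945-101347027, minus strand) a 3p product, each in capitals.
Mirlet7a-1: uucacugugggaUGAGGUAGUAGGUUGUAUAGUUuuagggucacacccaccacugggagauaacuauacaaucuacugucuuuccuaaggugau
Mir101a: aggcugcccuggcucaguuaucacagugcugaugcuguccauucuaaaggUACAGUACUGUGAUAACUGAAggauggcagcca
The 5p product of Mirlet7a-1 starts 12 bases into the listed hairpin and the 3p product of Mir101a ends 12 bases before its end.

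Lists of known target genes were read for 15 miRNA families, 8 whose main strand is the 5p strand and 7 whose main strand is the 3p strand. One mature member of each is shown from RefSeq, with the seed (bases 2 to 8, which pair with the target) in capitals. All 15 names matched, and no seed was shared between families, so that a gene on 1 list is not on another through the same seed.
let-7a-5p: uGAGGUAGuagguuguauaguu
miR-21a-5p: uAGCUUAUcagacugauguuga
miR-16-5p: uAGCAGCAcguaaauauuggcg
miR-17-5p: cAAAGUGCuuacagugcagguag
miR-26a-5p: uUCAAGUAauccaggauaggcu
miR-30a-5p: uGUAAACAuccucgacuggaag
miR-31-5p: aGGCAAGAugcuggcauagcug
miR-34a-5p: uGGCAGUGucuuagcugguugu
miR-29a-3p: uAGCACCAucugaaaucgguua
miR-101a-3p: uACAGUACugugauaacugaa
miR-221-3p: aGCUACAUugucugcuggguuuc
miR-200b-3p: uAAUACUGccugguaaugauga
miR-19a-3p: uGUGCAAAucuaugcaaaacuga
miR-92a-3p: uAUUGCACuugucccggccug
miR-27a-3p: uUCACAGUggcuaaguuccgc
The let-7 seed is carried by 11 mature mouse names in the table, the miR-16 seed by 10 and the miR-17 seed by 7. The miR-92a seed, that of a 3p list, is carried by 6 names, among them the 5p strand miR-32-5p.

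A level is given here as the log2 signal of a gene's probe minus the 75th percentile of its own array, so that 0 is the brightness of that percentile, and levels of different genes are not compared. A difference is log2 of one group over the other, from a fit in limma over all 12 arrays with the replicate number as a block, and it is called when the adjusted p is below 0.05 over 24184 genes. Replicate 1 of every group was hybridized on 1 slide and replicates 2 and 3 on the other. WT replicate 1 stood apart from the rest, with 82.7% of its probes well above background against 49.5% to 71.4% on the other 11 arrays, and values without it follow the results that rest on it.

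D1709N differed from WT in 3759 genes, 15.5% of those tested, of which 1723 were higher (7.12%) and 2036 lower (8.42%). At least 2-fold differences made up 557 of them. The same paired fit on the 6 D1709N and WT arrays alone called 100 genes, 29 higher and 71 lower. For WT against GFP the count was 4300 genes (17.8%), of which WT raised 2219 (9.18%) and lowered 2081 (8.6%). D1709N differed from GFP in 1027 genes (4.25%), 426 higher (1.76%) and 601 lower (2.49%). The WT arrays enter the first 2 of these contrasts, and the GFP arrays the last 2, so the counts are not independent. With the slide as the block 1407 were called, and on the slide of replicates 2 and 3 alone 939, of which 893 had the same sign on the other slide.

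Without the replicate block the same fit called 402 genes between D1709N and WT (1.66%; 240 higher, 0.992%, and 162 lower, 0.67%), and all 402 are among the 3759. For WT and GFP it called 713 (2.95%), with 287 above GFP (1.19%) and 426 below (1.76%), and 12 between D1709N and GFP (0.0496%; 2 higher, 0.00827%, and 10 lower, 0.0413%). Leaving out WT replicate 1 gave 2375 genes between D1709N and WT. The count also moved by more than 1.5 times without D1709N replicate 1 (2273), 2 (1576) or 3 (1915) or WT replicate 2 (2195). Irrespective of any test, the 3 D1709N levels lay wholly above or below the 3 WT levels in 4254 genes (17.6%), above in 2421 (10%) and below in 1833 (7.58%).

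Most wild-type effects with a clear outcome were not given by D1709N. Of the 4300 genes that WT changed against GFP, 2014 (46.8%) differed between D1709N and WT in the opposite direction and were not called between D1709N and GFP. These effects, called not given here, were 1033 genes that WT raised and 981 that it lowered, and in the median gene D1709N reached 2.89% of the wild-type difference from GFP. A further 77 genes (1.79%) were given in part: D1709N moved them as WT did, but less.

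D1709N kept 462 wild-type effects (10.7%), 220 rises and 242 falls, in the sense that both forms were called against GFP in the same direction and no difference between the 2 forms was called. Of these, 135 (3.14%) had a 95% interval of the difference between D1709N and WT that stayed within 50% of the wild-type effect, and these are termed bounded. In 50 genes (1.16%) the 2 forms were called in opposite directions against GFP, 36 of which WT raised. Of the other 1697, 1678 were called neither between D1709N and GFP nor between D1709N and WT and could not be placed. Over all 4300 genes D1709N reached 32.2% of the wild-type effect in the median gene.

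A last class holds genes on which D1709N acted and WT did not match it. Of the 1027 genes that D1709N changed against GFP, 331 (32.2%) also differed from WT in the same direction, 116 higher and 215 lower, the 50 of opposite direction among them. In turn, 1599 of the 3759 differences between D1709N and WT were not wild-type effects by the call against GFP, and 1337 of them were called in neither contrast with GFP. Without WT replicate 1 the classes held 1314 effects not given, 106 given in part, 519 kept and 274 beyond WT. Without the replicate block 258 effects were not given, 240 of them shared with the class above, and 10 were kept, 8 of them shared.

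**Figure D1:**
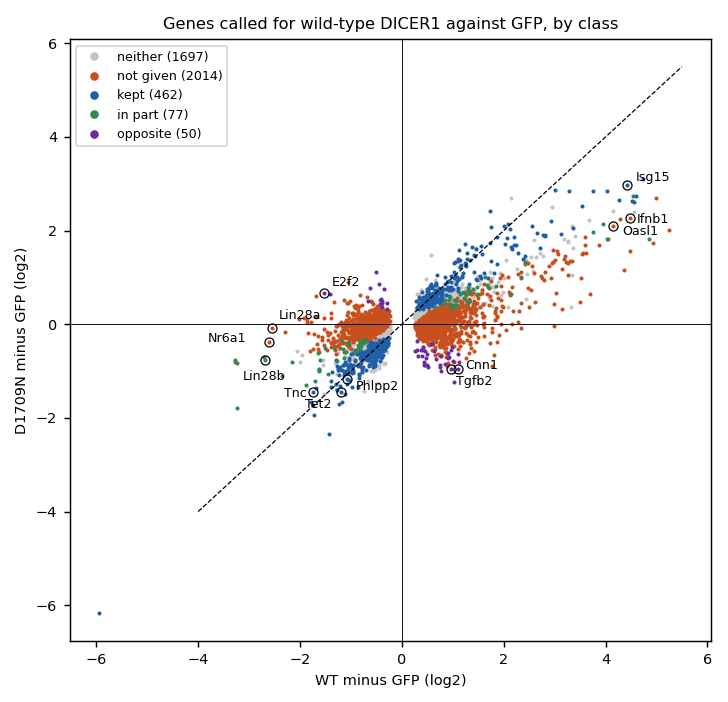
Difference from GFP (log2) with WT on the x axis and with D1709N on the y axis for the 4300 genes that WT changed, coloured by class; both axes share the GFP arrays, and the dashed line marks equal effects. The 2014 effects not given lie along the horizontal zero line and the 462 kept effects along the dashed line.

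Genes listed as targets of 5p miRNAs were higher with D1709N than with WT more often than they were lower, and those listed for 3p miRNAs were lower more often than higher. On the 8 lists of 5p families, leaving out genes also on a 3p list, 38 of 113 measured genes were higher (33.6%) and 7 lower (6.19%), with a median difference of 0.21. Over all 24184 genes the shares were 7.12% and 8.42% and the median -0.01. On the 7 lists of 3p families, without genes of a 5p list, 6 of 85 were higher (7.06%, near the share of all genes) and 15 lower (17.6%), with a median of -0.07. Neither direction of these lists was tested as a set, and their members were chosen with earlier results of these data known. Without the replicate block the counts were 14 higher and 1 lower of 113, and 2 higher and 0 lower of 85. With only the D1709N and WT arrays in the fit they were 4 and 0 of 113 and 0 and 0 of 85.

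The classes of the wild-type effects on these lists were counted beside those of all 4300, of which 46.8% were not given and 10.7% kept. No difference between the lists was tested. On the 5p lists the median difference from GFP was -0.30 with WT and -0.06 with D1709N, and among 44 wild-type effects 28 were not given, 3 were given in part and 1 was kept. On the 3p lists the medians were -0.10 with WT and -0.17 with D1709N, and of 24 wild-type effects 9 were not given and 8 were kept, 3 of them bounded. By pair of replicates, the median of the 5p lists was 0.24, 0.30 and 0.18 and that of the 3p lists -0.06, -0.06 and -0.11. Without WT replicate 1 they were 0.19, with 28 higher and 6 lower, and -0.07, with 5 higher and 7 lower.

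**Figure D2:**
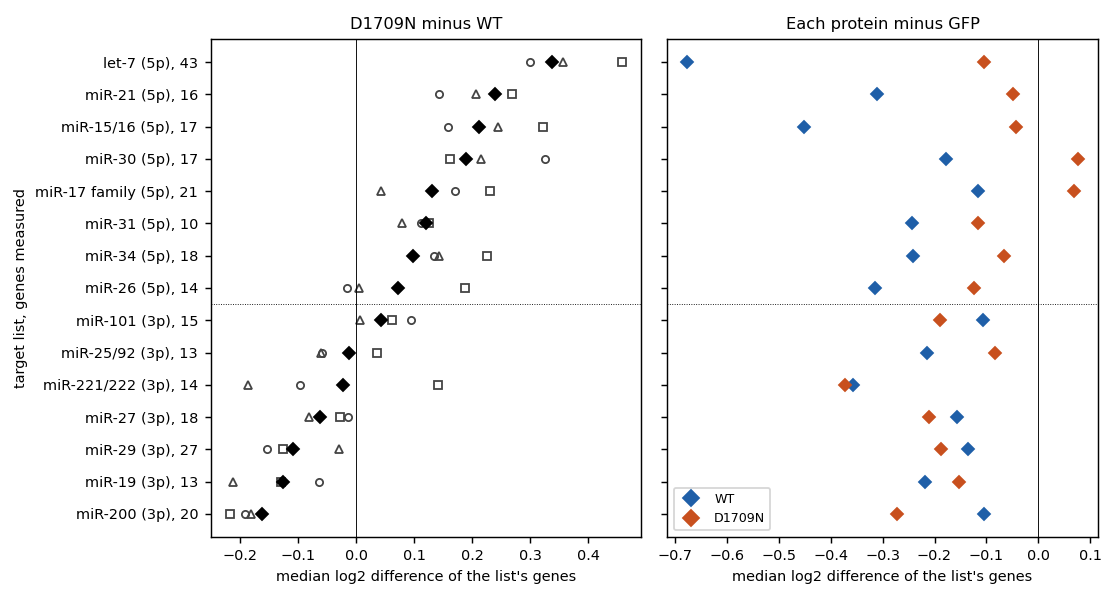
Median log2 difference over the measured genes of the 15 miRNA target lists. Left, D1709N minus WT by replicate pair (small symbols) and over the pairs; right, WT minus GFP and D1709N minus GFP. The let-7 list has the highest median at 0.34, and the miR-200, miR-19 and miR-29 lists lie lowest at -0.16, -0.13 and -0.11.

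The 5p families ranked from let-7 downwards. Of 43 measured let-7 targets 19 were higher and 6 lower with D1709N (44.2% and 14%, against 7.12% and 8.42% of all genes), with a median of 0.34. The fit without the block called 8 higher and none lower, and with only the D1709N and WT arrays in the fit 3 were higher and none lower. The lists of miR-21 (3 higher and 1 lower of 16, median 0.24), miR-15/16 (5 and 2 of 17, 0.21) and miR-30 (7 and 0 of 17, 0.19) followed. The lists of miR-17 (4 and 1 of 21, 0.13), miR-31 (1 and 0 of 10, 0.12), miR-34 (4 and 2 of 18, 0.10) and miR-26 (3 and 3 of 14, 0.07) had smaller medians, and with quantile normalization those of miR-34 and miR-26 were 0.03 and -0.03. In the authors' deposited table they were 0.02 and -0.03, and without the replicate block the miR-34 list had 1 higher and 1 lower. Several genes are on more than 1 list, among them Cdc25a, Ccne2, E2f3 and Ccnd1.

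The 3p families had medians from -0.16 to 0.04. Of 20 miR-200 targets 1 was higher and 7 lower. The miR-29 list had 3 higher and 4 lower of 27, miR-19 1 and 3 of 13, miR-27 0 and 2 of 18, miR-101 3 and 1 of 15, miR-92a 1 and 0 of 13, and miR-221 0 and 1 of 14. On the miR-221 and miR-27 lists no wild-type effect was in the class not given. The former kept 3, Bmf and Ets1 among them, and the latter 4 (Cyp1b1, Zbtb10, Gab1 and Fbxw7).

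Lin28a, an RNA-binding protein that itself blocks let-7 maturation, had the largest difference of the let-7 targets. It read 3.95, 3.64 and 3.14 with D1709N in replicates 1, 2 and 3, 1.53, 0.93 and 0.87 with WT, and 3.99, 3.65 and 3.35 with GFP. All 3 D1709N arrays lay with the GFP arrays and far above every WT array. The difference between D1709N and WT was 2.47 ± 0.09 (SE of the joint fit, n = 3 arrays per group), or 5.54-fold, with an adjusted p of 3.3e-05. This SE, and each one given after ± below, is the moderated SE of the fit over all arrays of the study. It is not the SE of the 3 pair differences alone. Against GFP, WT lowered Lin28a by 2.55 on the log2 scale, whereas D1709N differed from GFP by -0.08 (95% interval -0.29 to 0.12).

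Lin28b, its paralog, kept a small share of the wild-type effect. Its levels were 2.45, 3.30 and 2.89 with D1709N, 0.92, 0.92 and 1.01 with WT, and 3.53, 3.93 and 3.46 with GFP. The D1709N arrays sat between the other 2 groups with no overlap. D1709N exceeded WT by 1.93 ± 0.16 (adjusted p = 0.00056) and fell short of GFP by 0.76 (adjusted p = 0.0408), so that it gave 28.3% of the wild-type difference of -2.70. A second probe of Lin28b differed by 1.13.

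Nr6a1, an orphan nuclear receptor of the early embryo, was lowered by WT and not by D1709N. It read 0.37, 0.61 and 0.77 with D1709N, -1.67, -1.96 and -1.32 with WT, and 0.68, 0.89 and 1.30 with GFP. Every WT array was below every other array, and the D1709N and GFP ranges overlapped. The difference was 2.23 ± 0.14, or 4.70-fold (adjusted p = 0.000199). D1709N differed from GFP by -0.37, which was not called (adjusted p = 0.17).

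Further let-7 targets act in chromatin, growth and the cell cycle. The DNA-binding protein genes Arid3a and Arid3b were 1.90 and 0.97 higher with D1709N, the growth factor receptor gene Igf1r 0.94 and the ribonucleotide reductase subunit gene Rrm2 0.98. The oncofetal mRNA-binding protein genes Igf2bp2 and Igf2bp1 were 0.75 and 0.60 higher, and Igf2bp3 differed by 0.03 (adjusted p = 0.944). Hmga2, the architectural chromatin protein often cited as the let-7 target, read 2.86, 2.93 and 2.67 with D1709N, 2.25, 1.82 and 2.30 with WT, and 2.99, 2.67 and 2.54 with GFP. Its groups did not overlap between D1709N and WT, with a difference of 0.69 ± 0.15 (adjusted p = 0.0165). Leaving out D1709N replicate 2 took the adjusted p to 0.0727, and the call was also lost without WT replicate 1 or WT replicate 2.

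Of the let-7 list, 6 genes went the other way. Ccnd1, Thbs1, Plagl1, Hmga1, Limd2 and Ccnd2 were lower with D1709N, by values from -0.92 for the cyclin D1 gene Ccnd1 to -0.33 for Ccnd2. Ccnd1 levels of the 2 groups overlapped across pairs. Mycn, a MYC family gene on the list, was the 1 wild-type effect of the list that was kept, at -0.95 with WT and -0.61 with D1709N. It was not bounded.

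**Figure D3:**
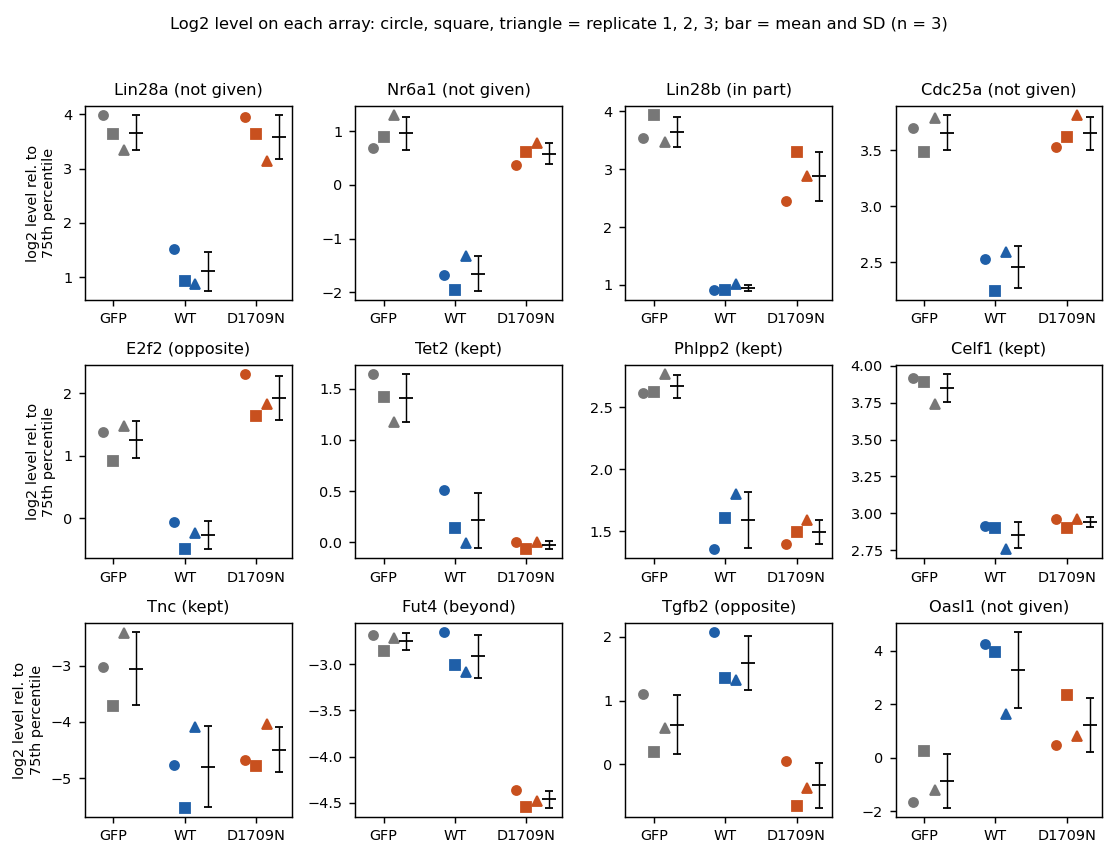
Level of 12 genes on each GFP, WT and D1709N array (log2 signal minus the array's 75th percentile; circle, square and triangle for replicates 1, 2 and 3; bar and whisker for mean and SD). D1709N lies with GFP for Lin28a, Nr6a1 and Cdc25a, with WT for Tet2, Phlpp2, Celf1 and Tnc, and below both for Fut4 and Tgfb2.

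Targets of the other 5p families that were not given include regulators of growth and of oxygen sensing. Hif1an, which hydroxylates HIF and is the miR-31 target of the list, was 1.22 higher with D1709N than with WT and differed from GFP by -0.18. Reck, a membrane inhibitor of matrix proteases listed for miR-21, was 0.92 higher. The cytokine signalling inhibitor Socs3 (0.99), the silencing scaffold Tnrc6a (1.01) and the intermediate filament gene Vim (0.65) led the miR-30 list. Tgfbr2, the type II TGF-beta receptor on the miR-21 and miR-17 lists and the 3p list of miR-19, was 0.79 higher.

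S phase and mitosis genes that WT lowered were mostly not lowered by D1709N. WT lowered 46 of 56 measured genes against GFP (all genes, 8.6%) and raised none, with a median of -0.61. D1709N gave 0.00 in the median, and 40 of the 46 effects were not given and none was kept. Against WT, 43 of 56 were higher with D1709N (all genes, 7.12%) and none lower, with a median of 0.64 and pair medians of 0.51, 0.61 and 0.63. In 47 of the 56 the D1709N and WT arrays did not overlap (all genes, 17.6%).

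The group did not rest on genes that are on a miRNA list: of the 50 others 38 were higher and none lower, with a median of 0.55. Without WT replicate 1 the count was 36 of 56 and the median 0.59. Without the replicate block 17 of 56 were higher and none lower, and with only the D1709N and WT arrays in the fit 3 were higher and none lower.

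Cyclins and their activating phosphatase were among the genes that D1709N did not lower. Cdc25a, the phosphatase that activates CDK2 at the G1/S transition and a target of let-7 and miR-16, read 3.53, 3.61 and 3.81 with D1709N, 2.53, 2.25 and 2.60 with WT, and 3.70, 3.48 and 3.79 with GFP. The WT arrays were the lowest 3, and D1709N overlapped GFP throughout. The difference was 1.19 ± 0.09, or 2.29-fold (adjusted p = 0.000287). The difference of D1709N from GFP was -0.00.

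Ccna2, the S phase cyclin, read 3.69, 3.58 and 3.53 with D1709N, 2.54, 2.43 and 2.41 with WT, and 3.76, 3.47 and 3.62 with GFP. No WT array came near the other 6. The difference was 1.14 ± 0.07 (adjusted p = 0.000204). The E-type cyclin genes Ccne1 and Ccne2 were 1.53 and 1.51 higher, the mitotic kinase genes Aurkb and Cdk1 1.08 and 0.78 higher, and the replication licensing factor gene Cdt1 0.90 higher. Members with the smallest called differences were the helicase subunit gene Mcm7 (0.33), Orc1 (0.38) and Foxm1 (0.38).

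E2f2, an activator of S phase genes and a let-7 target, went past GFP. It read 2.31, 1.63 and 1.82 with D1709N, -0.06, -0.50 and -0.24 with WT, and 1.38, 0.92 and 1.47 with GFP. Every D1709N array was above every GFP array and every WT array below. D1709N exceeded WT by 2.19 ± 0.13 (adjusted p = 0.000139) and GFP by 0.67 (adjusted p = 0.0291). The repressor genes E2f7 and E2f8 were 1.26 and 1.05 higher with D1709N than with WT.

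**Figure D4:**
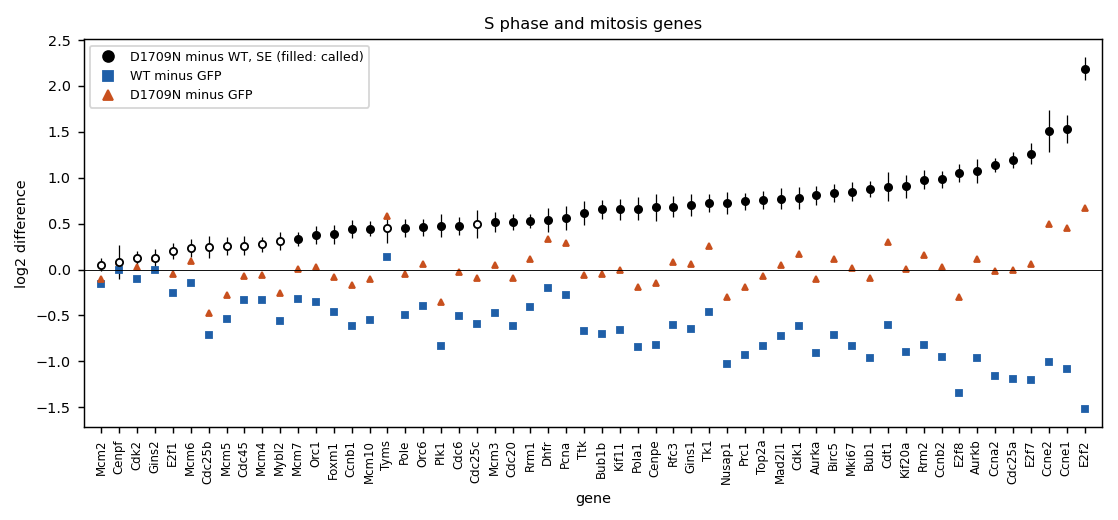
Log2 difference of D1709N from WT with its SE for the 56 S phase and mitosis genes (filled where called), with WT minus GFP (squares) and D1709N minus GFP (triangles). The 43 called genes all lie above 0, the squares mostly below 0, and the triangles around 0.

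Promoters of these genes often carry the E2F consensus, which was searched on both strands as TTTCCCGC or TTTGGCGC in windows from 250 bases before to 50 after the RefSeq start. A match was found in 12 of 45 S phase genes with a window (26.7%) and in 357 of 11709 tested genes (3.05%). Of the 12 with a match 9 were higher with D1709N, and of the 33 without 26 were. The 200 bases before the start are shown for Cdc25a (chr9:109875379-109875578, plus strand) and for the licensing factor gene Cdc6 (chr11:98907951-98908150, plus strand), with the match in capitals, as 1 gene with a large and 1 with a small difference (0.48).
Cdc25a: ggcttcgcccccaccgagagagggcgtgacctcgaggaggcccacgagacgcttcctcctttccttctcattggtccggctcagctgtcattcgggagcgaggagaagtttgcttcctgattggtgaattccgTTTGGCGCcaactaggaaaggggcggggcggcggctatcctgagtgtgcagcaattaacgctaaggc
Cdc6: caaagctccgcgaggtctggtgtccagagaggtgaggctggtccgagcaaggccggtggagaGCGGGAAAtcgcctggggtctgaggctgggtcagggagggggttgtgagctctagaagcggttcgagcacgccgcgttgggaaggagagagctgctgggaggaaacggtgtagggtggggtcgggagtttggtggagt
A match describes the letters of the window and was not tested for binding.

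In the miRNA pathway itself 9 of 24 measured genes were higher with D1709N than with WT (all genes, 7.12%) and none was lower (8.42%), with a median of 0.31, and without the genes of the let-7 list 7 of 21 were higher, with a median of 0.29. These were 5 of 24 and 3 of 21 without the replicate block. The Argonaute genes Ago2 and Ago1 were 0.76 and 0.54 higher, the scaffold genes Tnrc6a and Tnrc6b 1.01 and 0.39, the Dicer partner gene Tarbp2 0.65 and the deadenylase gene Cnot6 0.69. The mouse Dicer1 probe read 0.93, 0.91 and 0.61 with D1709N, 0.53, 0.09 and 0.20 with WT, and 1.36, 1.02 and 1.02 with GFP. D1709N was above WT on every array, by 0.54 ± 0.10 (adjusted p = 0.0096, and 0.188 without the replicate block), and the WT arrays were the lowest. That probe does not check the labels, since whether it reads the introduced DICER1 is not stated.

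Of 17 measured DNA methylation and Polycomb genes 9 were higher with D1709N than with WT (all genes, 7.12%) and none was lower (8.42%), with a median of 0.35. Without the replicate block 2 were higher, and the median was 0.22 with quantile normalization and in the authors' deposited table. They were the Polycomb cofactor gene Jarid2 (0.99), the DNA methyltransferase genes Dnmt3b (0.77) and Dnmt1 (0.48), the histone methyltransferase genes Ezh1 (0.66) and Ezh2 (0.46), and Rbbp7, Cbx2, Suz12 and Eed (0.56, 0.42, 0.42 and 0.35). Without genes on a miRNA list 5 of 7 were higher, with a median of 0.48, and none without the replicate block. Dnmt3b is on the 3p list of miR-29, and Ezh2 is on the 3p list of miR-101 and the 5p list of miR-26. Both were effects that D1709N did not give. Against GFP, Dnmt3b differed by -0.90 with WT and -0.13 with D1709N, and Ezh2 by -0.60 and -0.14.

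Against these, a set of wild-type falls was kept. Tet2, which oxidizes methylcytosine and is listed for miR-29 and miR-101 among the 3p families and for miR-26 among the 5p families, read 0.00, -0.07 and -0.00 with D1709N, 0.52, 0.14 and -0.01 with WT, and 1.64, 1.42 and 1.17 with GFP. Both DICER1 groups lay below every GFP array and overlapped each other. WT lowered it by 1.20 and D1709N by 1.44, and the difference of -0.24 between them (95% interval -0.49 to 0.00) was not called (adjusted p = 0.166).

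Phlpp2, a phosphatase that acts on AKT, read 1.40, 1.49 and 1.59 with D1709N, 1.35, 1.61 and 1.80 with WT, and 2.61, 2.62 and 2.77 with GFP. The 6 DICER1 arrays overlapped and lay well below GFP. The difference was -0.09 (95% interval -0.28 to 0.09) beside falls of 1.18 with D1709N and 1.08 with WT, although another probe of Phlpp2 differed by -0.69.

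Celf1, which binds GU-rich mRNAs, read 2.96, 2.90 and 2.96 with D1709N, 2.91, 2.90 and 2.75 with WT, and 3.92, 3.89 and 3.74 with GFP. Again both DICER1 groups overlapped below GFP. The difference was 0.08 (95% interval -0.09 to 0.26), and the falls were 0.91 and 1.00. Its 3 probes ranged from -0.28 to 0.28.

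The matrix glycoprotein gene Tnc was near background, at -4.68, -4.78 and -4.04 with D1709N, -4.77, -5.53 and -4.09 with WT, and -3.01, -3.72 and -2.42 with GFP. The 2 DICER1 groups overlapped, and neither reached a GFP array. WT lowered Tnc by 1.75 and D1709N by 1.45, with 2 of 3 WT arrays well above background. The pro-apoptotic gene Bmf (-1.06 with WT and -0.96 with D1709N) and the transcription factor gene Ets1 (-0.91 and -0.78), both on the miR-221 list, were kept and bounded. Cyp1b1, a miR-27 target, was not well above background with either DICER1 form and was at least 3.45-fold lower with WT and at least 2.97-fold lower with D1709N than with GFP.

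A kept rise was that of Id1, an inhibitor of basic helix-loop-helix factors. It rose by 0.85 with WT and 0.86 with D1709N, and the 2 forms differed by 0.01 (95% interval -0.22 to 0.24).

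Genes that WT raised and D1709N did not include several with large differences. Stmn4, a microtubule regulator of the stathmin family, read 1.82, 0.94 and 1.01 with D1709N, 4.96, 4.01 and 3.89 with WT, and 2.14, 0.77 and 0.98 with GFP. Each WT array exceeded all others, and D1709N and GFP overlapped. The difference was -3.03 ± 0.12, or 8.14-fold lower (adjusted p = 4.05e-05), and D1709N differed from GFP by -0.03.

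The secreted glycoprotein gene Fstl1 was 2.46 lower on the log2 scale by the same fit, at -0.52, 0.10 and -0.05 with D1709N against 1.92, 2.37 and 2.63 with WT. Its GFP levels, 0.29, 0.79 and 0.39, were all above D1709N. The difference of D1709N from GFP was -0.65 (adjusted p = 0.0745). The fibroblast surface gene Lrrc15 differed by -2.66 and the citrate transporter gene Slc13a5 by -2.44, each well above background on 2 of 3 D1709N arrays.

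Some of the largest falls were of genes not well above background with D1709N. There only a bound holds, taken against the dimmest signal well above background: at least 5.62-fold lower for Cd200r2, an immunoglobulin family receptor gene, at least 2.60-fold for Tmem151b, at least 2.30-fold for the phospholipase gene Pla2g4e and at least 1.79-fold for the fatty acid carrier gene Fabp4. The call for Cd200r2 was lost without D1709N replicate 2 or 3 or WT replicate 1 or 2.

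Among the largest rises beside the let-7 genes were the glycolytic regulator gene Pfkfb1 (2.12), Zcchc3 (1.97), the hormone gene Fgf21 (1.97), the oxidized LDL receptor gene Olr1 (2.30) and the surface marker gene Ly6d (2.40), all also called without the replicate block. Ly6d was given in part, at -3.23 with WT and -0.83 with D1709N against GFP.

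Interferon-stimulated genes rose in larger number with WT than with D1709N, and most differences between the forms were not called. WT raised 38 of 41 measured genes against GFP (all genes, 9.18%) and D1709N raised 14 (all genes, 1.76%), with medians of 2.82 and 1.44. D1709N was lower than WT in 14 of 41 (all genes, 8.42%) and higher in none, with a median of -1.08. Of the 38 wild-type effects 13 were not given, 1 was given in part and 13 were kept, of which only Ifi27 was bounded.

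The pairs differed widely, with medians of -2.18, -0.81 and -0.31 in replicates 1, 2 and 3. Only 1 of the 41 genes had D1709N and WT arrays that did not overlap (all genes, 17.6%), and none was called without the replicate block. Without WT replicate 1 the median was -0.56 and 10 genes were lower. The count fell to 1 without D1709N replicate 1 or 2 and to 2 without D1709N replicate 3 or WT replicate 2, and rose to 27 without WT replicate 3. With one GFP array left out it was 11, 8 or 7, and with one G1809R array left out 9, 4 or 8.

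**Figure D5:**
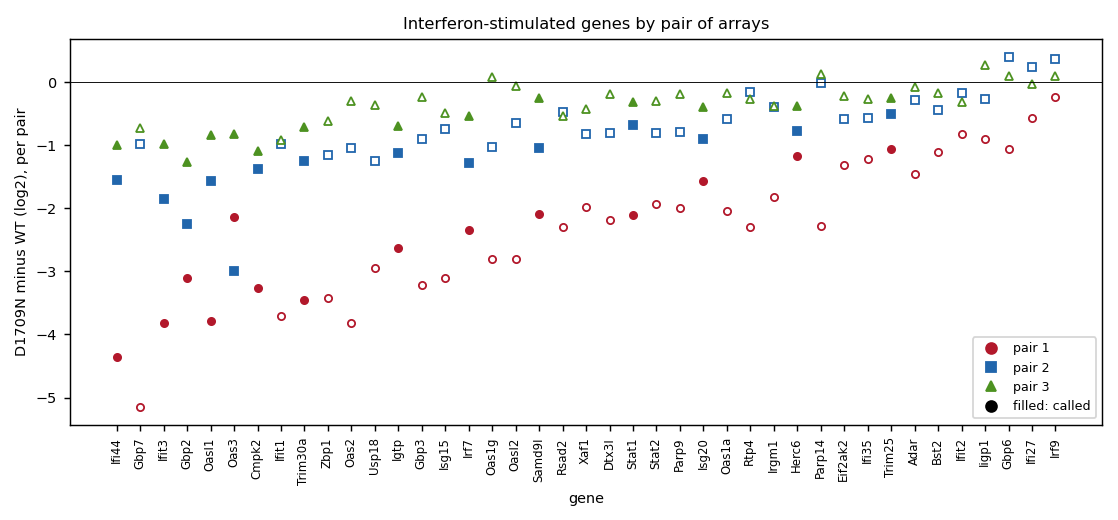
Log2 difference of D1709N from WT in each replicate pair for the 41 interferon-stimulated genes (circle, square and triangle for pairs 1, 2 and 3; filled where the gene is called). Pair 1 lies lowest by its median, at -2.18, and pair 3 nearest to 0, with a median of -0.31.

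Ifnb1, the interferon beta gene, read -4.70, -4.43 and -4.13 with D1709N and -1.43, -2.64 and -2.57 with WT, and was well above background on 1 of 3 GFP arrays. Its D1709N and WT levels did not overlap. The difference was -2.20 ± 0.62 (adjusted p = 0.0466, and 0.124 without the replicate block), and of the 12 fits that leave out 1 array the call held in 2, those without GFP replicate 1 or 2.

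Oasl1, an interferon-induced gene of the oligoadenylate synthetase family, read 0.47, 2.37 and 0.82 with D1709N, 4.26, 3.94 and 1.66 with WT, and -1.67, 0.27 and -1.21 with GFP. WT replicate 3 lay below D1709N replicate 2, so the groups overlapped, although each pair had D1709N lower. The difference was -2.07 ± 0.54 (adjusted p = 0.0349) and held in 5 of 12 fits that leave out 1 array. It was lost without any of the 3 D1709N arrays, WT replicate 2, GFP replicate 2 or G1809R replicate 2 or 3.

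Isg15, the ubiquitin-like modifier gene, read 3.63, 6.36 and 3.96 with D1709N, 6.74, 7.10 and 4.46 with WT, and 0.49, 3.81 and 0.71 with GFP. Replicate 2 was the highest array of each group, and the D1709N and WT groups overlapped. WT raised it by 4.42 and D1709N by 2.98, and the difference of -1.45 was not called (adjusted p = 0.098). The RNA sensor gene Ifih1 rose by 3.36 and 2.05, with a difference of -1.31 (adjusted p = 0.0865). The sensor gene Ddx58 was 0.76 lower with D1709N (adjusted p = 0.0426), and that call held in 2 of 12 fits that leave out 1 array. The DNA sensing family gene Ifi207, at -2.91 (adjusted p = 0.00797), and the GTPase gene Gbp2, at -2.21, were called in all 12 fits that leave out 1 array.

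Interferon response elements, searched as TTTCNNTTTC on both strands of the same windows, were found in 16 of 31 of these genes with a window (51.6%) and in 425 of 11709 tested genes (3.63%). Of the 16 with a match 5 were lower with D1709N, and of the 15 without 8 were. The 200 bases before the start are shown for Isg15 (chr4:156200819-156201018, minus strand), with 3 overlapping matches, and Ifit3 (chr19:34583329-34583528, plus strand), with 2.
Isg15: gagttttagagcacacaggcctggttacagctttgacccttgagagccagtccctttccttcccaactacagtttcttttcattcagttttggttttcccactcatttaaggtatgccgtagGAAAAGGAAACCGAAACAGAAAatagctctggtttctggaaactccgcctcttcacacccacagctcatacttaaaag
Ifit3: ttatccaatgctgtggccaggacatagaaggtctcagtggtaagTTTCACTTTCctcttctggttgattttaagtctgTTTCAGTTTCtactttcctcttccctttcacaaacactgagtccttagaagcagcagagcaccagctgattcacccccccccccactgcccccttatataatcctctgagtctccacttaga
Both genes rose with WT, and the difference between the forms was called for Ifit3 (-2.22, adjusted p = 0.034) and not for Isg15. The Ifit3 call held in 5 of 12 fits that leave out 1 array.

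Other immune genes moved with this group in part. Over all genes 7.12% were higher with D1709N than with WT and 8.42% lower. Of 14 MHC class I genes 4 were lower with D1709N, the light chain B2m (-0.71), the heavy chains H2-K1 and H2-D1 (-1.01 and -0.91) and the proteasome subunit Psmb9 (-0.71), and none without WT replicate 1. On the NF-kB list 2 of 21 were higher, the monocyte chemokines Ccl2 (1.29) and Ccl7 (0.86), and 5 lower, the chemokines Cxcl10 and Ccl5 (-1.97 and -1.11), Il6 (-1.03), Tnfaip3 (-0.65) and Nfkbiz (-0.38). Without the replicate block the NF-kB list had 1 higher and none lower, and no MHC class I gene was called.

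In Tgfb2, a TGF-beta ligand, D1709N and WT went opposite ways from GFP. It read 0.05, -0.66 and -0.38 with D1709N, 2.08, 1.35 and 1.32 with WT, and 1.11, 0.19 and 0.58 with GFP. In each replicate number D1709N was below GFP and WT above it. WT raised Tgfb2 by 0.96 and D1709N lowered it by 0.95, a difference of -1.92 ± 0.11 (adjusted p = 0.000139). On the TGF-beta list 2 of 14 were higher with D1709N than with WT and 6 lower (all genes, 7.12% and 8.42%), with Tgfb2 the lowest.

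Basement membrane collagens were among the rises not given. Col4a1 and Col4a2 were 1.51 and 1.31 lower on the log2 scale with D1709N, at -1.51 ± 0.16 (adjusted p = 0.00134) and -1.31 ± 0.13 (adjusted p = 0.00113), and differed from GFP by -0.22 and 0.00. Both are on the miR-29 list, of which Col5a3 (-0.84) and Col5a1 (-0.49) were also lower and Dnmt3b, Sparc and Mcl1 higher. Over 25 collagen and matrix genes 3 were higher (Dcn 1.01, Col6a1 0.89 and Sparc 0.67) and 6 lower (all genes, 7.12% and 8.42%), and none was called without the replicate block. The list's median of -0.28 moved to -0.09 with quantile normalization, -0.11 with normexp background, -0.13 in the authors' deposited table, -0.14 on the slide of replicates 2 and 3, and as far as -0.12 with 1 array left out.

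Smooth muscle markers fell short of WT in every pair. Of 7 measured 5 were lower with D1709N (all genes, 8.42%), Cnn1 (-2.07), Tagln (-1.35), Myh11 (-1.02), Acta2 (-0.84) and Smtn (-0.63). The list's median of D1709N minus WT was -0.84, and the pair medians were -1.20, -0.95 and -0.60. The list's median was 0.78 with WT and -0.35 with D1709N against GFP. Summed on the linear scale relative to the 75th percentile, the 7 markers came to 27.6 to 130 with D1709N, 90.1 to 198 with WT and 45.6 to 156 with GFP, so that the groups overlapped, and none was called without the replicate block. The regulator genes Myocd and Lmod1 did not pass the filter. The part of contractile cells in these results was not tested.

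Markers of other cell types were called in both directions, beside 7.12% higher and 8.42% lower over all genes. Without the replicate block no gene of the leukocyte, endothelial, gonadal stroma, epithelial or mesenchymal lists was called. Of 7 leukocyte markers 1 was higher (Csf1r, 1.19), with the pan-leukocyte gene Ptprc and the macrophage genes Adgre1, Cd68 and Lyz2 not measured. Of 5 endothelial markers 2 were lower (Vwf -0.92 and Kdr -0.58), with Cdh5, Tek and Tie1 not measured, and none of 5 gonadal stroma markers was called. Of 12 fits that leave out 1 array the Vwf call held in 3 and the Kdr call in 12. Epithelial genes split, with Krt7 (0.91), Krt8 (0.76) and Krt18 (0.63) higher and Cldn4 (-0.79) lower of 13, and mesenchymal genes had 3 higher and 4 lower of 12. The summed epithelial level was 351 to 499 with D1709N, 225 to 386 with WT and 260 to 418 with GFP, so that the ranges overlapped. Such a linear sum weighs the brightest genes most. By gene, the median epithelial difference of D1709N from WT was -0.07, with 5 of 13 above 0, and 0.03 with quantile normalization.

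A group of genes changed with D1709N beyond both WT and GFP. Fut4, which adds fucose to cell surface glycans, read -4.37, -4.55 and -4.48 with D1709N, -2.65, -3.01 and -3.08 with WT, and -2.69, -2.85 and -2.71 with GFP. The D1709N arrays were the lowest 3, and WT and GFP overlapped. D1709N was 2.93-fold lower than WT (-1.55 ± 0.10, adjusted p = 0.000204), and the difference of WT from GFP was -0.16. A second probe of Fut4 gave -0.95, and the gene was well above background on 2 of the 3 D1709N arrays.

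Six4, a homeobox gene, was lowered by both forms, by 1.20 with D1709N and 0.67 with WT, and the difference of -0.54 was called (adjusted p = 0.0143). Zeb2 and Trps1, on the miR-200 and miR-221 lists, followed this order, at -0.49 and -0.64 against WT and -0.60 and -1.08 against GFP, while WT differed from GFP by -0.11 and -0.44, neither called. In the other direction S100a4, a calcium-binding protein of motile cells, was 1.09 higher than WT and 1.16 higher than GFP, and the simple-epithelium keratin Krt7 0.91 and 1.01 higher. The call for Krt7 was lost without D1709N replicate 1 or 2 or WT replicate 1 or 2.

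Metabolic and stress lists were also read, beside 7.12% higher and 8.42% lower over all genes. Without the replicate block no gene of the hypoxia, cholesterol, ATF4 or Wnt lists was called. On the hypoxia and glycolysis list 6 of 19 were higher with D1709N and 1 lower, with a median of 0.35. Its pair medians were 0.56, 0.31 and 0.06. The glucose transporter gene Slc2a1 (1.01), Ndrg1 (0.90) and Pdk1 (0.89) led and Adm (-0.66) was lower. Of 18 cholesterol genes 5 were higher, among them the sterol carrier gene Stard4 (0.68) and the isoprenoid enzyme gene Idi1 (0.62), and none was lower. Of 19 ATF4 and ER stress genes 1 was higher (Cth, 0.63) and 3 lower, led by Ddit3 (-0.64), and of 9 Wnt targets 4 were lower and none higher.

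The RAS and growth factor list had 2 higher and 1 lower of 25, the p53 list 0 and 1 of 20, the oviduct and Muellerian list 1 and 2 of 11, and the double-stranded RNA sensing list 0 and 2 of 14. The shares over all genes were 7.12% and 8.42%. Oncofetal and imprinted genes had 5 higher and 2 lower of 16, all of them on the let-7 list, and of the 7 off that list none was called. None of 21 ribosomal protein genes was called, with a median of 0.11 that turned to -0.03 after quantile normalization. The p53 target and CDK inhibitor gene Cdkn1a differed by -0.24 (adjusted p = 0.14).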

How the data were processed

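Each array was hybridized with 100 ng of Cy3-labelled RNA, per the labels' protocols. The deposited scanner files hold Agilent Feature Extraction 11.0.1.1 output, background-corrected intensity per spot. The authors' deposited value table of log2 values served as an alternative; its scale and centring are not stated. From the intensity, log2 was taken and each array's 75th percentile subtracted. Spots of a probe were averaged, and probes well above background (in at least 0.5 of their spots) on all 3 arrays of at least 1 group were kept. The probe with the highest mean level stood for its gene, giving 24184 genes, 14732 with a RefSeq symbol (GRCm38.p6). limma 3.58.1 (R 4.3.3) was fitted on 12 arrays with the replicate number as a block, with two-sided moderated tests and Benjamini-Hochberg adjustment over all genes. The rule of comparison pairs the arrays by number. In a check, deviations from group means of same-numbered arrays correlated at 0.601 to 0.853, and of other arrays at -0.675 to 0.197. The method was tested on simulated data.

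Named genes were the 10 largest rises and 10 largest falls called with and without the block and with non-overlapping arrays, the 6 largest wild-type effects in each direction not given or kept, the 3 smallest p-values of each list, and set genes; other genes were named after their values were seen. The members, lists and classes were chosen with earlier results of these data known. The class of opposite directions was added after seeing the data. The 3 arrays a group limit the precision. Alternatives covered the block, samples, scaling, background, filter, array weights and the authors' values. A few genes are not reported here.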

Additional observations from a re-analysis of the deposited data

Results flagged for a closer look

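In 6 of the genes described, wild-type DICER1 and D1709N were called in opposite directions against GFP on these arrays, and the difference between the 2 forms was itself tested by the fit of D1709N against WT. D1709N was higher than WT by 2.06 in Atp6v0a4, a proton pump subunit gene (-1.41 with WT and 0.65 with D1709N against GFP), and by 2.19 in E2f2 (-1.52 and 0.67). It was lower in Tgfb2 at -1.92 (0.96 and -0.95), in the retinol carrier gene Rbp4 at -1.92 (1.12 and -0.80), in the contractile gene Cnn1 at -2.07 (1.11 and -0.96) and in the TGF-beta binding gene Ltbp2 at -1.23 (0.43 and -0.80). In all 6 the adjusted p of D1709N against WT was below 0.001 with the replicate block, and that call held in 12 of 12 fits that leave out 1 array. Without the block Cnn1 (adjusted p = 0.287) and Ltbp2 (adjusted p = 0.13) were not called between D1709N and WT. The calls of these genes against GFP, which make the directions opposite, were not followed over the fits that leave out 1 array. Over all genes D1709N against GFP gave 127 to 1262 calls in those fits and 12 without the block.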

How the results depend on the processing

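The arrays of a group number 3, and dim probes give only bounds; the counts rest on the replicate block more than on any scaling tried. With no replicate block 402, 713 and 12 genes were called for D1709N against WT, WT against GFP and D1709N against GFP, and 258 wild-type effects were not given, 0 given in part, 10 kept and 2 beyond WT. With the slide as block these were 1407, 2112, 97, 851, 4, 57 and 26, and on slide 2 only 939, 1613, 82, 527, 10, 54 and 18. With no filter on dim probes they were 1700, 2531, 144, 1009, 5, 74 and 54. With only the D1709N, WT and GFP arrays D1709N against GFP gave 255 genes, 16 effects in part, 130 kept and 94 beyond WT, and with only the D1709N and WT arrays D1709N against WT gave 100. The strict filter gave 141 effects in part. Array weights gave 4415 genes for D1709N against GFP, 262 effects in part, 1172 kept and 866 beyond WT.

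Leaving out 1 array at a time gave 1576 to 3376 genes for D1709N against WT, 2328 to 4035 for WT against GFP, 127 to 1262 for D1709N against GFP, 1108 to 1855 effects not given, 4 to 116 in part, 71 to 519 kept and 50 to 345 beyond WT. Leaving out 1 replicate number in every group gave 243 to 1068, 1180 to 1613, 1 to 82, 184 to 577, 0 to 10, 1 to 54 and 0 to 18. The share of D1709N against WT calls that were higher was 45.8%, 59.7% without the block and 29% with only D1709N and WT arrays.

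Median differences of D1709N from WT ranged from 0.56 to 0.67 for the S phase list over fits leaving out arrays, from 0.19 to 0.28 for the 5p lists, and from -0.0874 to -0.0219 for the 3p lists. The let-7 median was 0.45 in the authors' table. The miR-101 median turned to -0.0239 with quantile normalization, -0.016 with array weights and -0.0292 in the authors' table, and ranged from -0.0116 to 0.0921 over arrays left out. The miR-27 median turned to 0.0184 with quantile normalization and with normexp, 0.0047 with the strict filter and 0.0078 in the authors' table, and ranged from -0.0841 to 0.0059. The ribosomal median turned to -0.0303 with quantile normalization and -0.0291 in the authors' table. The leukocyte marker median turned to -0.0497 on slide 2 only, -0.005 with array weights and -0.0227 in the authors' table, and ranged from -0.0497 to 0.1162. Of 104 calls among the 143 genes named by rule 68 were lost without the block and 85 with only D1709N and WT arrays, and none reversed. The cause of these changes was not tested.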

Other observations

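Several wild-type effects kept by D1709N lie outside the lists, and these genes were chosen after their values were seen. The transcript 2310065F04Rik read -4.09, -3.87 and -3.07 with D1709N, -3.27, -3.81 and -3.29 with WT, and 1.83, 3.11 and 2.54 with GFP, the largest kept fall. The 6 DICER1 arrays overlapped far below GFP, and the difference between the forms was -0.22 (95% interval -0.94 to 0.49). The early-embryo genes Zscan4c (1.24 with WT and 1.31 with D1709N against GFP), Tcstv1 (1.26 and 1.24) and Pramel19 (2.07 and 1.84) rose alike with both forms. They belong to families of near-identical copies, so their probes may read several genes. The adhesion molecule gene Vcam1 (-1.23 and -1.09), the arginase gene Arg1 (-1.14 and -1.09) and the phosphatase gene Dusp2 (-1.29 and -1.28) fell alike with both, and the extracellular superoxide dismutase gene Sod3 rose alike (1.88 and 1.86).

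Other genes changed with D1709N and not with WT, again chosen after their values were seen. The cell death gene Hrk differed from GFP by -1.71 with D1709N and 0.46 with WT, the gap junction gene Gjb2 by -1.79 and 0.09, the activin antagonist gene Fst by -1.38 and -0.01, and the chemokine gene Cxcl12 by -1.43 and -0.48. In the other direction the sphingomyelinase gene Smpd3 differed by 1.39 and 0.15, the claudin gene Cldn15 by 1.32 and 0.12, and the mesothelial and urothelial surface gene Upk3b by 1.06 and 0.02. Smpd3 read 4.04, 3.19 and 3.76 with D1709N, 2.42, 1.86 and 2.96 with WT, and 2.37, 1.59 and 2.85 with GFP, so every D1709N array was above all 6 others. All 7 of these differed between D1709N and WT at an adjusted p from 0.00056 for Hrk to 0.0119 for Cxcl12. Further genes called in opposite directions against GFP were Marcksl1 (0.96 with WT and -0.54 with D1709N), Apoe (0.60 and -0.42), Gas1 (-0.35 and 0.74) and Cryab (-0.39 and 0.37).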
